A study of Bos taurus with 15 samples.

Results

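The genes that encode the proteins of the mitochondrial ribosome were examined in bovine blastocysts produced in vitro with or without extracellular vesicles of oviductal fluid (oEVs). They were taken as every gene of the filtered count table whose bovine symbol starts with MRPL or MRPS followed by a number, which gave 78 of 10832 genes, 49 named MRPL and 29 named MRPS. All 78 such symbols of the reference annotation were in the filtered table, so no gene of the family was lost to the filter on low counts. Total RNA of embryo pools was sequenced in 15 libraries, 5 per culture condition. Control embryos (Co) received no oEVs, FeEV embryos received freshly isolated oEVs, and FoEV embryos received oEVs that had been frozen and thawed. The oEVs came from postovulatory oviducts of slaughterhouse cows, and each pool held 8 to 14 blastocysts labelled day 7 and entered with 1 ng of RNA. The study states that fresh and frozen oEVs were portions of material from the same oviducts. The comparisons address whether oEVs, and their freezing, alter embryonic transcripts. The labels do not say that the pools came from separate fertilisation runs or oEV preparations, so p-values measure the spread between these pools, and the sequenced pools had been chosen for RNA quality.

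Mitochondria carry their own ribosome, which translates the few proteins encoded by mitochondrial DNA, all of them components of the respiratory chain and ATP synthase. Its RNAs come from mitochondrial DNA, but every one of its proteins is encoded in the nucleus, made in the cytosol and imported. Many of these proteins descend from bacterial ribosomal proteins, and others exist only in mitochondrial ribosomes. The blastocyst is the stage at which the bovine embryo forms trophectoderm and inner cell mass and raises its oxidative metabolism.

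The symbols do not match the subunits exactly. MRPS30 and MRPS18A carry small-subunit names but are built into the large subunit, and MRPS36 is now known as a component of the 2-oxoglutarate dehydrogenase complex. By location, 51 of the genes encode large subunit proteins, 26 encode small subunit proteins and 1, MRPS36, neither. By origin, 48 have homologues among bacterial ribosomal proteins, called bacterial homologues below. The other 30, MRPS36 and MRPL58 among them, were classed as specific to mitochondria.

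Library totals ranged from 2136713 to 4058887 counts, and every FoEV library (from 3392613) was deeper than every Co library (up to 2977004). Levels are given as CPM, counts scaled to a common library size, with TMM factors, which correct for library composition. All 78 genes had reads in all 15 libraries, between 7 and 402 per gene and library, and only MRPL33 and MRPS12 had under 10 in any library. Their mean CPM in Co ranged from 6.01 for MRPL33 to 95.4 for MRPS10, with a median of 25.3 against 27.6 over all genes. The next highest were MRPL11, MRPL37, MRPL39 and MRPL15, and the next lowest were MRPS12, MRPS25, MRPL23 and MRPL41. CPM was not corrected for transcript length, so these values describe read depth and not an order of transcript abundance. Between the pools of a group the genes varied with a median coefficient of variation of 14.9% for Co, 11.7% for FeEV and 15.4% for FoEV, against 16.6%, 15.4% and 17.4% over all genes.

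Taken over the family, mitochondrial ribosomal protein genes were read more often after FoEV treatment, in both subunits and by a small amount per gene, and no single gene passed correction for multiple testing in edgeR's quasi-likelihood test. The large subunit score, the mean log2 CPM over its 51 genes, was 4.74, 4.76, 4.62, 4.60 and 4.77 in the Co libraries. It was 4.71, 4.76, 4.82, 4.79 and 4.84 in FeEV and 4.90, 4.77, 5.03, 4.88 and 4.91 in FoEV. In the FoEV group, 4 libraries lay above every Co library and replicate 2 lay level with the highest Co library. The mean score of Co was 4.70 ± 0.08 (SD, n = 5), that of FeEV 4.79 ± 0.05 and that of FoEV 4.90 ± 0.09.

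The small subunit score followed the same order. The Co libraries had 4.54, 4.66, 4.54, 4.47 and 4.57, the FeEV libraries 4.62, 4.70, 4.66, 4.70 and 4.64, and the FoEV libraries 4.76, 4.57, 4.92, 4.76 and 4.74. FoEV replicate 2 lay inside the Co range and the other 4 FoEV libraries lay above it, with replicate 3 the highest of all 15 libraries for both subunits. The large subunit score exceeded the small subunit score by 0.143 ± 0.054 in control pools, by 0.119 ± 0.057 after FeEV and by 0.149 ± 0.037 after FoEV treatment, and the ranges of the 3 groups overlapped. Counts assigned to the 78 genes averaged 0.223% of the library total for Co, 0.240% for FeEV and 0.248% for FoEV. These shares overlapped, at 0.203% to 0.262% in Co, 0.2227% to 0.2545% in FeEV and 0.221% to 0.274% in FoEV. The totals include rRNA counts, which made up 15.5% to 28.2% of a library.

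**Figure D1:**
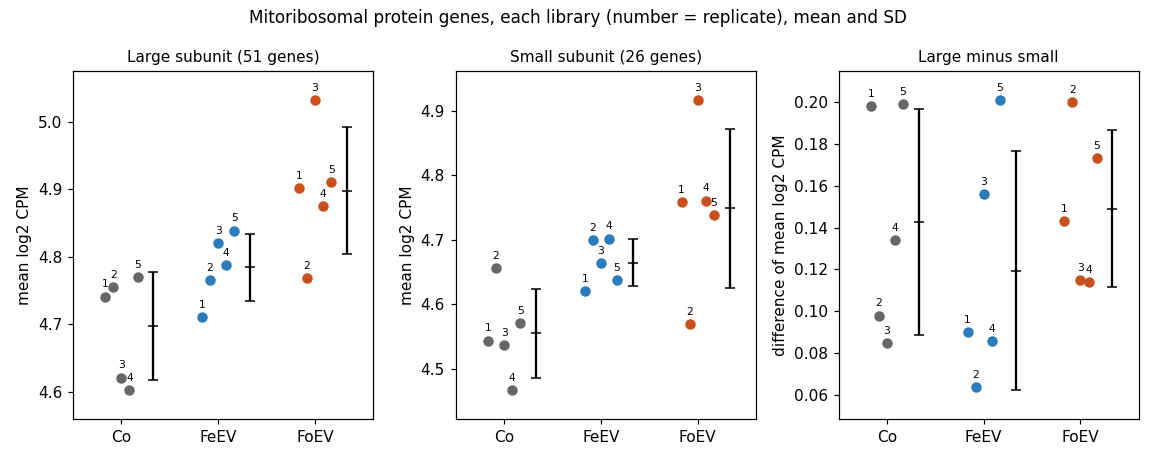
Mean log2 CPM of the 51 large subunit genes, of the 26 small subunit genes, and the difference between them, in each of the 15 libraries; points are libraries numbered by replicate and bars are mean and SD (n = 5). FoEV libraries lie highest in both subunits except replicate 2, and the large minus small difference overlaps in the 3 groups.

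Single genes followed this order only in part. The group mean was highest in FoEV for 52 of the 78 genes, in FeEV for 18 and in Co for 8. It was lowest in Co for 51 genes, and the means stood in the order Co, FeEV, FoEV from low to high for 41 genes and in the reverse order for 5. FoEV libraries held the highest of the 15 values for 58 genes, and FoEV replicate 3 alone for 27 of them. The counts of this paragraph were not made over all genes. FoEV replicate 2 and FoEV replicate 4 each held the lowest value for 9 genes, so the FoEV libraries were not alike.

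In FoEV against Co, 62 of the 78 genes had a higher and 16 a lower fitted level, and the median log2 fold change was 0.21 against 0.02 over all genes. Of all genes, 52.3% were higher. None of the 78 genes reached an adjusted p under 0.05 in edgeR's quasi-likelihood test with Benjamini-Hochberg adjustment over all genes, a call reached by 0.00923% of the genes tested. The smallest adjusted p among them was 0.0578. At an unadjusted p under 0.05, 19 of the genes (24.4%) were higher and 0 were lower, where 8.18% of all genes were higher and 6.88% lower. The Wald test of DESeq2 called 3 of the genes, MRPL52, MRPL58 and MRPS26, where it called 2.4% of the genes to which it gave an adjusted p. It gave none to 29 of the 78 genes, MRPL41 and MRPL57 among them. A likelihood ratio test with robust dispersions called those 3 and also MRPL21, MRPL41, MRPL57 and MRPS34, where it called 2.87% of all genes. In edgeR's quasi-likelihood test, 5 of the genes passed without FoEV replicate 2 and 1, MRPL58, without Co replicate 2, and 0 without any other single library.

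Both subunits showed the shift. Of the 51 large subunit genes, 42 were higher in FoEV than in Co, their median log2 fold change was 0.21, and 14 (27.5%) were higher at an unadjusted p under 0.05. Of the 26 small subunit genes, 19 were higher with a median of 0.21, and 5 (19.2%) were higher at that threshold. A difference between the subunits was not tested. Grouped by origin, the 48 genes with bacterial homologues had a median of 0.22, with 40 higher and 12 at an unadjusted p under 0.05. The 30 mitochondrion-specific genes had a median of 0.13, with 22 higher and 7 at that threshold, and they included the 4 genes with an unadjusted p under 0.001, which were MRPL58, MRPL52, MRPL57 and MRPS26. Of all genes, 0.831% passed that threshold in either direction.

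**Figure D2:**
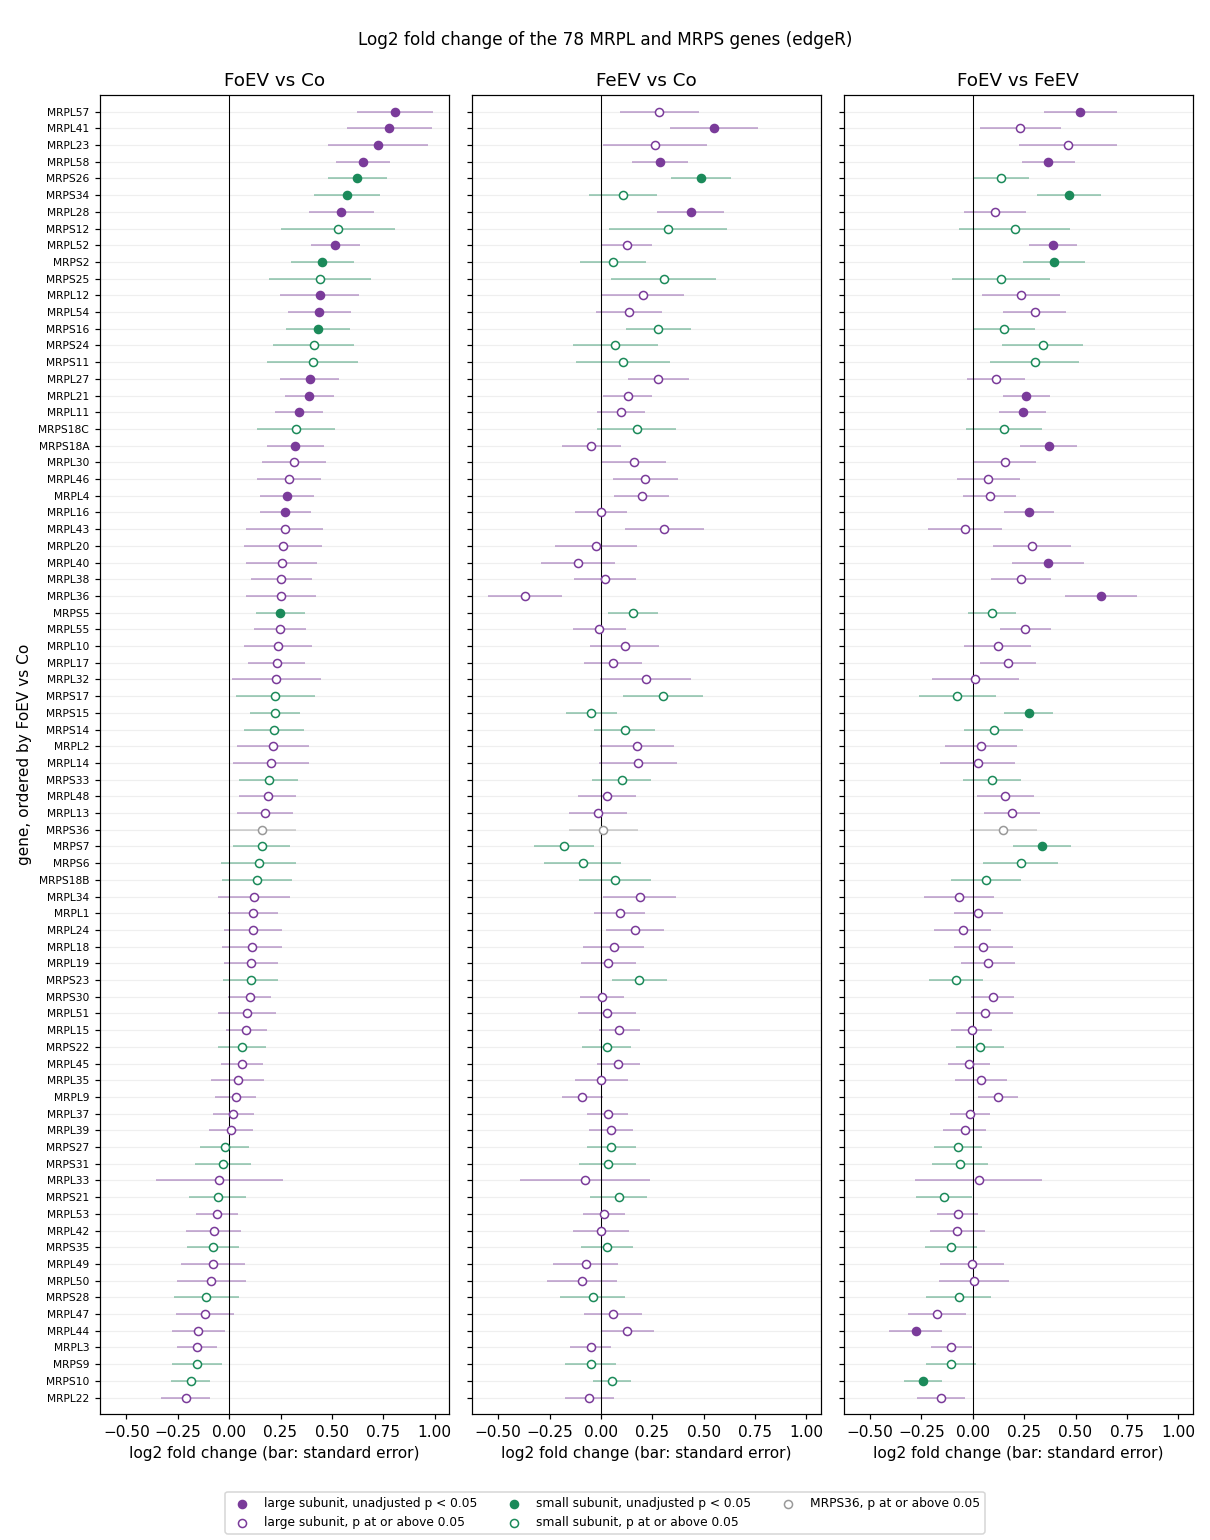
Log2 fold change with standard error of each of the 78 genes in FoEV against Co, FeEV against Co and FoEV against FeEV, ordered by the first; colours give the subunit and filled points an unadjusted p under 0.05. In FoEV against Co 62 genes lie right of zero and 19 of them are filled, 14 of the large and 5 of the small subunit, and no gene left of zero is filled.

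The libraries of the 2 groups did not overlap for 8 genes. FoEV lay wholly above Co for 7 genes (8.97%, against 1.26% of all genes), which were MRPL21, MRPL28, MRPL41, MRPL52, MRPL57, MRPL58 and MRPS26. FoEV lay wholly below Co for 1 gene, MRPS10, a direction seen in 1.35% of all genes.

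Among the mitochondrion-specific proteins of the large subunit, MRPL58, a peptidyl-tRNA hydrolase that became part of the ribosome and releases stalled chains, had the smallest p. Its level was 18.2, 25.0, 17.7, 16.1 and 19.7 CPM in Co, 22.4, 24.1, 21.6, 24.1 and 26.0 in FeEV, and 28.7, 29.0, 32.5, 33.1 and 29.4 in FoEV. Every FoEV library lay above every FeEV and every Co library. Its log2 fold change in FoEV against Co was 0.65 (SE 0.13), a fold of 1.57, with an adjusted p of 0.0578 in edgeR.

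MRPL52, a structural protein, was at 30.6, 36.8, 26.8, 29.3 and 34.5 CPM in Co, 32.5, 38.3, 33.8, 31.4 and 36.3 in FeEV, and 46.5, 40.1, 52.9, 43.1 and 43.3 in FoEV. All FoEV libraries again lay above all others, while FeEV and Co overlapped along most of their ranges. Its log2 fold change of FoEV against Co was 0.52 (SE 0.12), with an adjusted p of 0.0757 in edgeR.

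MRPL57 had the largest fold of the family in FoEV against Co. It was at 10.6, 12.8, 15.5, 8.43 and 15.6 CPM in Co, 13.4, 13.7, 17.8, 13.2 and 18.2 in FeEV, and 20.4, 19.2, 28.4, 18.0 and 24.5 in FoEV. FoEV stood apart from Co and met the FeEV range only at its lower end. Its log2 fold change was 0.81 (SE 0.19), a fold of 1.75, with an adjusted p of 0.0757 in edgeR. MRPL57 overlaps ZDHHC20 in the later bovine annotation, one of 23 of the 78 genes that overlap another gene there, with MRPL3, MRPL16, MRPL22, MRPL23 and MRPL47 also among them, and the strand setting of the counting was not given in the sources used here.

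MRPL41, which is also described as a binding partner of BCL2, was at 7.66, 6.41, 7.10, 9.23 and 11.1 CPM in Co, 10.1, 15.2, 8.13, 14.1 and 13.1 in FeEV, and 14.4, 11.4, 15.2, 17.4 and 12.8 in FoEV. FeEV and FoEV overlapped here, and the lowest FoEV value lay just above the highest Co value. Log2 fold changes were 0.78 (SE 0.21) for FoEV and 0.55 (SE 0.21) for FeEV against Co, with adjusted p = 0.119 for the former in edgeR.

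Among the small subunit proteins, MRPS26, another mitochondrion-specific protein, separated both oEV groups from Co. It was at 21.2, 17.5, 19.0, 18.5 and 18.9 CPM in Co, 26.5, 25.6, 25.3, 25.1 and 30.5 in FeEV, and 36.8, 25.0, 27.3, 34.1 and 23.4 in FoEV. No library of either oEV group reached down to the Co range, and FeEV and FoEV overlapped. The log2 fold change was 0.62 (SE 0.14) for FoEV against Co, with adjusted p = 0.0757 in edgeR, and 0.49 (SE 0.15) for FeEV against Co, with unadjusted p = 0.00282.

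MRPS34, needed for a stable small subunit, was at 25.9, 18.9, 21.9, 21.3 and 29.6 CPM in Co, 24.7, 23.4, 26.3, 21.4 and 29.6 in FeEV, and 32.2, 24.5, 43.3, 41.4 and 33.8 in FoEV. FoEV replicate 2 lay inside the range of the other groups and the remaining 4 FoEV libraries lay above it. Its log2 fold change of FoEV against Co was 0.57 (SE 0.16), with adjusted p = 0.131 in edgeR.

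Of the proteins with bacterial homologues, MRPL28 showed the same order as MRPS26. It was at 13.5, 11.5, 11.3, 12.04 and 12.7 CPM in Co, 15.2, 16.3, 18.5, 15.0 and 17.3 in FeEV, and 17.4, 14.9, 17.6, 24.0 and 15.5 in FoEV. Both oEV groups lay wholly above Co and overlapped each other. Log2 fold changes were 0.55 (SE 0.16) for FoEV and 0.44 (SE 0.16) for FeEV against Co, with adjusted p = 0.14 for FoEV in edgeR.

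Other genes with bacterial homologues encode proteins at known functional sites. In the GTPase-associated region, where translation factors dock, MRPL11, at the base of the stalk, had a log2 fold change of 0.34 (SE 0.12) in FoEV against Co. MRPL12, the stalk protein, had 0.44 (SE 0.19), and its FoEV values ran from 19.2 to 47.1 CPM around the Co range of 19.4 to 32.1. MRPL23, a protein near the exit of the nascent chain, had 0.73 (SE 0.24), with FoEV replicate 3 at 20.7 CPM and the other FoEV libraries between 10.8 and 13.0. MRPL27 had 0.39 (SE 0.15), and the adjusted p of these 4 genes lay between 0.179 and 0.282 in edgeR. MRPS12, the decoding-centre protein, had 0.53 with an SE of 0.28 at 3.04 to 12.4 CPM and did not pass the unadjusted threshold.

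The 3 paralogs of bacterial ribosomal protein S18 could be compared with each other. MRPS18A, the one in the large subunit, had a log2 fold change of 0.32 (SE 0.14) in FoEV against Co, with unadjusted p = 0.0312. The small subunit paralogs MRPS18B and MRPS18C had 0.14 (SE 0.17) and 0.33 (SE 0.19), and neither passed the unadjusted threshold. MRPS30 had 0.10 (SE 0.11) and MRPS36 had 0.16 (SE 0.16), both without a difference at that threshold. Of the 19 genes at an unadjusted p under 0.05, the 7 not covered by the rule for naming genes were named after their values were seen: MRPL4, MRPL16, MRPL21, MRPL54, MRPS2, MRPS5 and MRPS16. The log2 fold changes of the 19 genes ran from 0.25 to 0.81.

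The genes with lower values in FoEV were few and their differences small. MRPS10 was at 88.6, 103.9, 93.5, 97.9 and 93.2 CPM in Co, 95.7, 102.5, 98.2, 114.3 and 86.0 in FeEV, and 85.4, 88.5, 84.0, 72.1 and 88.3 in FoEV. All FoEV values lay below all Co values, by a narrow margin at the edge of the groups. The log2 fold change was -0.19 (SE 0.09), with unadjusted p = 0.0562. MRPL22 had -0.21 (SE 0.12), MRPL3 had -0.16 (SE 0.10), MRPS9 had -0.16 (SE 0.12) and MRPL44, a protein with a fold like RNase III, had -0.15 (SE 0.13).

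**Figure D3:**
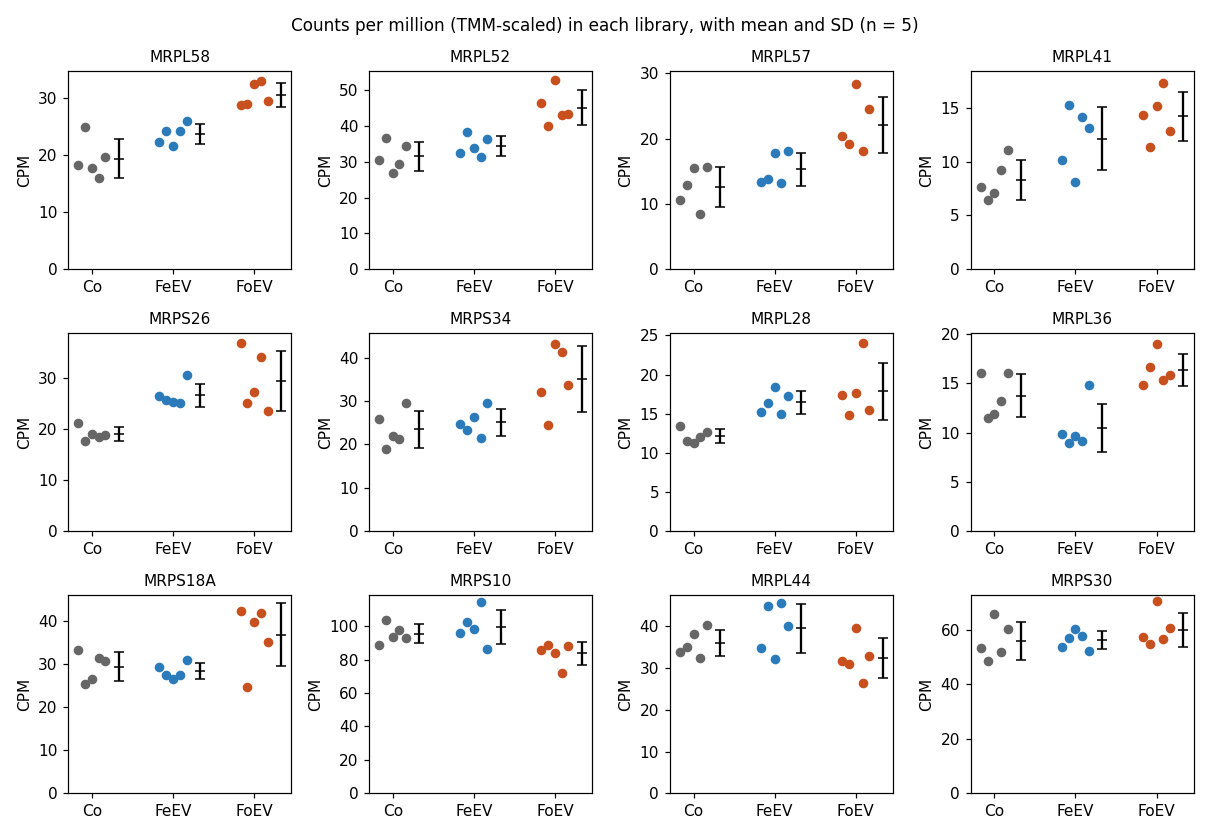
CPM of 12 of the genes in each library, by treatment, with mean and SD (n = 5); each panel starts at 0. FoEV lies above Co without overlap for MRPL58, MRPL52, MRPL57, MRPL41, MRPS26 and MRPL28 and below it for MRPS10, and FeEV lies lowest for MRPL36 apart from replicate 5.

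FeEV against Co gave smaller values. Of the 78 genes, 59 had a higher and 19 a lower fitted level. Their log2 fold changes had a median of 0.07, against 0.00 over all genes. The medians were 0.06 for the large subunit, with 37 of 51 genes higher, and 0.08 for the small subunit, with 21 of 26 higher. None of the genes reached an adjusted p under 0.05 in edgeR, where 0% of all genes did, and none did in the Wald test of DESeq2 (0.00923% of all genes) or the likelihood ratio test (0.0554%). At an unadjusted p under 0.05, 4 genes (5.13%) were higher, MRPS26, MRPL28, MRPL41 and MRPL58, and 0 were lower, where 1.83% of all genes were higher and 2.32% lower. The lower genes with the smallest p had log2 fold changes of -0.37 (MRPL36), -0.18 (MRPS7), -0.09 (MRPL9), -0.11 (MRPL40) and -0.09 (MRPL50). FeEV lay wholly above Co for 2 genes (2.56%), MRPS26 and MRPL28, where 0.535% of all genes lay wholly above and 0.415% wholly below. This comparison and the previous one share the 5 Co libraries.

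In FoEV against FeEV, 55 of the genes had a higher and 23 a lower fitted level. The median of their log2 fold changes was 0.10, against 0.01 over all genes. The medians were 0.08 for the large subunit, with 37 of 51 genes higher, and 0.10 for the small subunit, with 17 of 26 higher. No gene of the family reached an adjusted p under 0.05 in edgeR (0% of all genes), in DESeq2 (0.0277% of all genes) or in the likelihood ratio test (0.286%). At an unadjusted p under 0.05, 13 genes were higher and 2 lower, where 4.83% of all genes were higher and 3.69% lower. Without FoEV replicate 1, 9 genes in either direction passed that threshold. With each library left out in turn, 5.87% to 11.36% of all genes passed it in either direction. The 2 lower genes were MRPS10, with a log2 fold change of -0.24 (SE 0.09), and MRPL44, with -0.28 (SE 0.13). FoEV lay wholly above FeEV for 3 genes, MRPL36, MRPL52 and MRPL58, and wholly below it for 0, where 0.757% and 0.748% of all genes did so.

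MRPL36, the homologue of the smallest bacterial large subunit protein, had an order of its own. It was at 16.0, 11.5, 11.9, 13.2 and 16.0 CPM in Co, 9.84, 8.91, 9.70, 9.11 and 14.8 in FeEV, and 14.8, 16.7, 19.0, 15.4 and 15.8 in FoEV. FeEV was the lowest group, 4 of its libraries lay below all Co libraries, and replicate 5 lay inside the Co range. The log2 fold change was -0.37 (SE 0.18) in FeEV against Co, with unadjusted p = 0.053, and 0.62 (SE 0.18) in FoEV against FeEV, with unadjusted p = 0.00166 and adjusted p = 0.45 in edgeR.

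Mitochondrial ribosomal proteins with other symbols were examined as a list of 5 genes, and all 5 were higher in FoEV than in Co, with a median log2 fold change of 0.19. GADD45GIP1, a large subunit protein, had 0.63 (SE 0.21), with Co at 5.83, 9.78, 10.3, 6.42 and 12.3 CPM and FoEV at 15.3, 9.59, 16.3, 13.7 and 14.7. FoEV replicate 2 again lay inside the Co range and the other FoEV libraries above it. Its adjusted p in edgeR was 0.178. DAP3, a GTP-binding small subunit protein, had 0.15 (SE 0.11), and AURKAIP1 had 0.22 (SE 0.17).

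Factors that assemble or modify the mitochondrial ribosome were mixed. Of 27 such genes, 19 were higher in FoEV than in Co with a median of 0.12. Before adjustment, p was under 0.05 for 4 of the higher genes (14.8% of the list) and 1 of the lower ones. Over all genes, 8.18% passed this threshold upward and 6.88% downward. YBEY, an RNA endonuclease, had 0.62 (SE 0.21). MRM1, which methylates the large rRNA, had 0.56 (SE 0.24), and METTL15, which methylates the small rRNA, had -0.49 (SE 0.18).

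A list of 15 genes held mitochondrial translation factors and also OXA1L, LRPPRC and SLIRP, which are not translation factors. Of these 15 genes, 11 were higher in FoEV than in Co with a median of 0.10. Among them 0 were higher and 1 (6.67%) was lower at an unadjusted p under 0.05, against 8.18% and 6.88% of all genes. That gene was GFM2, which splits the ribosome for recycling, with -0.33 (SE 0.12). LRPPRC, which stabilises mitochondrial mRNAs, had -0.20 (SE 0.10) and the initiator-tRNA formyltransferase MTFMT had 0.36 (SE 0.18).

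Of 8 genes of mitochondrial transcription and RNA turnover, 7 were lower in FoEV than in Co, none of them at an unadjusted p under 0.05. The eighth, the mitochondrial RNA polymerase POLRMT, was higher, with 0.41 (SE 0.13) and unadjusted p = 0.00545. The median of the list was -0.09, MTERF1 had -0.32 (SE 0.17) and TFB2M had -0.23 (SE 0.13). The 13 symbols searched for mRNAs encoded by mitochondrial DNA matched 0 genes of the unfiltered counts, so these mRNAs were not analysed here.

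The shift of the family was compared with the cytosolic ribosome and with the respiratory chain. Of 81 cytosolic ribosomal protein genes, 71 were higher in FoEV than in Co, and the median log2 fold change was 0.15. Before adjustment, p was under 0.05 for 26 of the higher genes (32.1% of the list) and 1 of the lower ones. The shares over all genes were 8.18% upward and 6.88% downward. Of 82 genes of oxidative phosphorylation, 76 were higher, with a median of 0.18. At that threshold 18 (22.0%) were higher, against 24.4% of the mitochondrial ribosomal genes. In FeEV against Co, 32 of the 81 cytosolic genes were higher with a median of -0.03, while 67 of the 82 oxidative phosphorylation genes were, and their median was 0.06. The mitochondrial ribosomal genes had medians of 0.21 and 0.07 in these comparisons.

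**Figure D4:**
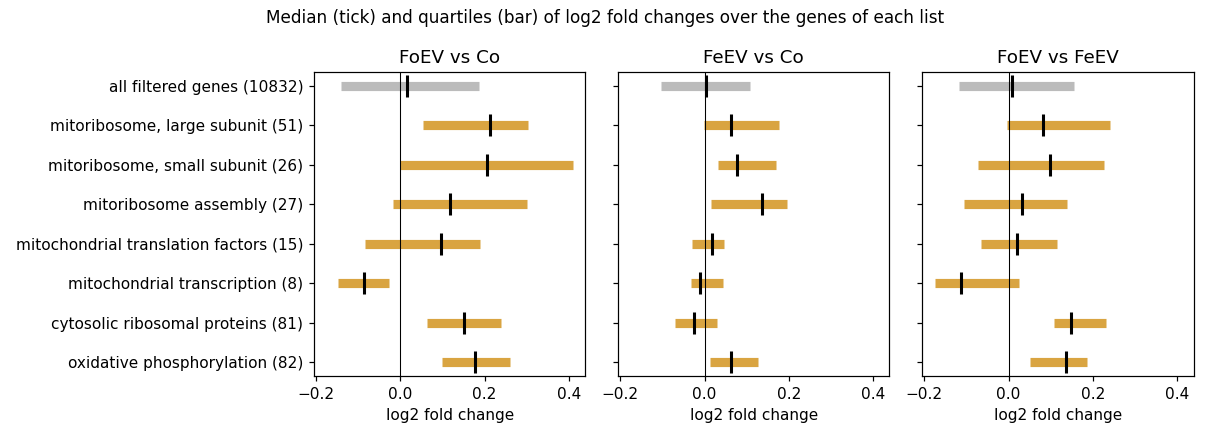
Median (tick) and quartiles (bar) of the log2 fold changes over the genes of each list, with the number of genes in parentheses, in the 3 comparisons. In FoEV against Co the large and small subunit lists have medians of 0.21, cytosolic ribosomal proteins 0.15 and oxidative phosphorylation 0.18, against 0.02 over all genes, and mitochondrial transcription lies at -0.09.

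Some markers of the cells in the pools differed as well. All 8 trophectoderm markers were detected. Their summed level was 6197 to 8083 CPM in Co, 6534 to 10060 in FeEV and 7899 to 11960 in FoEV. Unlike the levels above, summed marker levels are CPM of the unfiltered library totals, without TMM factors. KRT8 had 9003 to 25901 reads per library and KRT18 had 5598 to 19811, while none of the other trophectoderm markers had over 973. Against Co, 7 of the 8 were higher in FoEV, 4 of them (KRT8, KRT18, GATA2 and GATA3) at an unadjusted p under 0.05. Of all genes, 8.18% were higher at that threshold. TFAP2A was lower, with a log2 fold change of -0.49 (SE 0.30), and CDX2 had 0.21 (SE 0.20), neither at that threshold. The 6 inner cell mass markers summed to 374.6 to 474.7 CPM in Co, 390.7 to 457.2 in FeEV and 335.8 to 465.7 in FoEV, and 3 of the 5 tested were lower in FoEV than in Co. NANOG was among them, with a log2 fold change of -0.84 (SE 0.26) and an adjusted p of 0.178 in edgeR. SOX2 had -0.03 (SE 0.25) and PRDM14 had -0.245 (SE 0.171), while POU5F1 had 0.21 (SE 0.11) and SALL4 had 0.07 (SE 0.11). The median of the 5 tested was -0.03. The 6 hypoblast markers summed to 565.0 to 874.5 CPM in Co, 570.0 to 755.4 in FeEV and 553.2 to 730.3 in FoEV, and 3 of the 4 tested were lower, none at an unadjusted p under 0.05. The part of these cell types in the family's result was not tested, and in these pools more cells of a type and more RNA per cell cannot be told apart. The 6 oviduct markers summed to 5.58 to 13.4 CPM over all libraries, with OVGP1 at 0 to 6 reads per library, PIGR at 0 and PAX8 at 12 to 46. The 8 blood and stroma markers summed to 25.7 to 62.3 CPM in Co, 13.9 to 46.8 in FeEV and 28.03 to 45.2 in FoEV, with HBB at 0, PTPRC at 0 to 2 reads and COL1A1 at 21 to 132. The 8 cumulus markers summed to 28.6 to 52.0 CPM over all libraries. CYP19A1 had 36 to 140 reads per library, FSHR 14 to 43, STAR 11 to 20 and PTX3 0 to 1. Of the 3 tested, 1 was higher and 2 lower in FoEV than in Co, with 0 at an unadjusted p under 0.05. In FeEV against Co, 1 was higher and 2 lower, and FSHR had -0.555 (SE 0.231) with unadjusted p = 0.0254 in edgeR.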

How the data were processed

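Embryo RNA was sequenced from 15 pools, with groups taken from the treatment that each sample title gives. The deposited count tables hold raw counts per gene, made by the authors without normalization, for 34773 genes and for the 10832 kept by their filter. The study names QuasR for counting, while the submitters' processing notes list Trim Galore 0.4.3.1, HISAT2 2.1.0 and featureCounts 1.6.3. The build was ARS-UCD1.2 with the NCBI annotation. Symbols were joined by gene identifier to a later annotation, ARS-UCD2.0, which named 10709 of the 10832 genes. No 2 libraries were identical.

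Filtered counts were tested with edgeR 4.0.16 in R 4.3.3 (TMM, estimateDisp, robust glmQLFit, glmQLFTest), with treatment as the only factor and all 15 libraries in 1 fit. P-values were adjusted over all genes (Benjamini-Hochberg). Scores are means of log2 CPM (prior count 2). Alternatives were DESeq2 1.42.0, a likelihood ratio test with robust dispersions (the test named in the study's methods), other scaling, filters, blocks and depth, and leaving out each library. The tests were checked on simulated data. Tables were handled with Python 3.11.15, pandas 2.3.3 and numpy 2.4.6, and figures drawn with matplotlib 3.10.9.

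The genes and lists were chosen with earlier results of these data known. Named were genes with an adjusted p under 0.05, the 5 smallest p in each direction and comparison, the 5 highest and 5 lowest by mean CPM in Co, 9 genes for what they are, and the 3 smallest p of each pathway list in FoEV against Co. MRPS28 was placed in the small subunit after the tables were opened.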

Additional observations from a re-analysis of the deposited data

Results flagged for a closer look

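The 33 named genes, both subunit scores, their difference and the family's share of counts were examined in each treatment. Of these 111 groups of 5 libraries, 6 held a library far from the other 4, where chance gives about 1 in 20.

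MRPL23 in FoEV replicate 3 was 20.7 CPM against 10.8 to 13.0 in the other FoEV libraries. MRPL36 in FeEV replicate 5 was 14.8 CPM against 8.91 to 9.84. MRPL47 in FeEV replicate 2 was 61.3 CPM against 43.8 to 45.6. MRPS26 in FeEV replicate 5 was 30.4 CPM against 25.0 to 26.5. MRPL50 in FeEV replicate 1 was the lowest, 20.3 CPM against 24.1 to 25.1, and MRPS10 in FoEV replicate 4 was the lowest, 72.1 CPM against 84.0 to 88.5.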

How the results depend on the processing

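In FoEV against Co, the count of genes of the family with an adjusted p under 0.05 was 0 in the fit reported and 3 in the Wald test of DESeq2 (144 over all genes), 7 with the robust dispersion and likelihood ratio test (311), 5 with no filter on low counts (173), and 1 after thinning to equal depth (15). With the replicate block it was 2, MRPL57 (adjusted p = 0.0202) and MRPL58 (adjusted p = 0.0375), of 57 over all genes. It stayed at 0 with RLE scaling, the filter stated in the methods, the library-number block, without rRNA genes and with only the compared groups. Leaving out 1 library gave 0 to 5, the highest without FoEV replicate 2 (58 over all genes) and 1 without Co replicate 2 (4 over all genes). The cause was not tested. Deviations of same-numbered libraries correlated with a mean of 0.034 for FoEV and Co (1 of 5 pairs over 0.1), 0.138 for FeEV and Co (3 of 5) and 0.186 for FoEV and FeEV (3 of 5). For FoEV and FeEV the same-numbered pairs ran from 0.013 to 0.441, and differently numbered pairs had a mean of -0.046. Since not every pair was over 0.1 in any comparison, the numbers were not taken to pair the samples. Fresh and frozen oEVs came from the same oviducts, but whether the replicate numbers follow that split is not stated. The block changed no other call.

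In FoEV against Co, 62 of 78 genes were higher in all 10 other settings and 60 to 66 when 1 library was left out. The median log2 fold change of the large subunit was 0.17 to 0.22 in the other settings and 0.16 to 0.25 with a library left out, and that of the small subunit 0.19 to 0.23 and 0.13 to 0.24, lowest without FoEV replicate 3 and highest without FoEV replicate 2 in both subunits. The count at an unadjusted p under 0.05 was 17 to 20 and 15 to 25, where 10.27% to 18.11% and 11.48% to 18.06% of all genes passed. In FoEV against FeEV that count, in either direction, was 15, fell to 9 after thinning, and was 9 to 18 with a library left out. Of all genes, 8.52% passed in the reported fit, 6.28% to 11.11% in other settings and 5.87% to 11.36% with a library left out. In FeEV against Co, MRPL50 had a log2 fold change of -0.09, 0.016 without Co replicate 2, and from -0.169 to 0.016 with 1 library left out. Of the fits of single named genes, 577 kept their direction and side of the threshold, 2 had no adjusted p in DESeq2, and 20 passed it where the reported fit did not. Depth limits the low genes most: MRPL33 rested on as few as 7 reads in a library and MRPS12 on as few as 9.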
